A study of Mus musculus with 8 samples.

Results

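The 10 genes described here encode the machinery of MHC class I antigen presentation: the heavy chains H2-K1, H2-D1 and H2-T23, the light chain B2m, the peptide transporter Tap1 and Tap2, the loading factor Tapbp, and the immunoproteasome subunits Psmb8, Psmb9 and Psmb10. Their probes were found through the gene names and accessions that the array files give for each probe. All 10 were found, on 18 of the 41174 probes of the array, and all 10 were among the 16067 genes tested.

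Class I molecules carry peptides from proteins made inside the cell to its surface, where cytotoxic T cells read them. The proteasome cuts the proteins, the TAP transporter moves the peptides into the endoplasmic reticulum, and tapasin helps to load them onto a heavy chain paired with beta-2-microglobulin. Interferons and NF-kappa-B are known to raise the transcription of most of these genes, and the subunits of the immunoproteasome then take the place of the constitutive catalytic subunits; most nucleated cells, kidney epithelium among them, make class I molecules at some level.

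IMCD3, a mouse kidney epithelial line derived from the inner medullary collecting duct, was grown in 2 ways. The starved group was cultured for 48 h in medium without fetal calf serum to bring out cilia, and the unstarved group had 10% serum, had been split at 1:10 on the preceding day and was collected before it was confluent, so serum and cell density cannot be told apart as sources of a difference. There were 2 replicates, which the series text calls biological, and each was hybridised on 2 Agilent arrays with a starved and an unstarved sample in the same array, which gives 4 arrays and 8 channel samples, 4 per group. By the labels, starved RNA was in Cy5 on the arrays of replicate 1 (arrays 1 and 3) and in Cy3 on those of replicate 2 (arrays 2 and 4), whereas the series text has a dye swap inside each pair, so a difference between replicates and one between dyes cannot be told apart; their average holds both dye orientations equally. Arrays of 1 replicate correlated at 0.991 in both cases over the genes' log2 ratios, and the 2 replicates at 0.831. No spot was saturated, and the number of arrays limits the precision. The epithelial identity of the line was checked with 16 collecting duct and epithelial markers, of which 15 were well above background in the unstarved and 16 in the starved samples, Cdh1, Epcam, Pax8 and Aqp2 among them.

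Of the 10 genes, 8 were higher in starved cells, by 1.52-fold to 3.15-fold, and none was lower. Psmb9 rose most, the other 7 lay close together between 0.60 and 0.82 on the log2 scale, and B2m and Psmb10 did not pass the test. Over all 16067 genes, 31.4% were called in either direction and 18.1% were called higher (limma, Benjamini-Hochberg adjusted p below 0.05), so a large part of the transcriptome differed between the groups. The median log2 ratio of starved over unstarved was 0.71 for the 10 genes and 0.0052 for all genes tested. Every one of the 10 genes had the same sign on all 4 arrays, as did 69.4% of all genes. All 18 probes were well above background on the 4 arrays in both groups, so no gene entered through the group where it was high. In a culture measured in bulk, a change in RNA per cell and a change in the number of cells that make it cannot be told apart. The adjusted p-values borrow their spread from all genes, since 2 replicates alone give little; with each array centred on its median in place of the loess correction, 249 genes were called in all, and Psmb9 alone of the 10 genes was called (adjusted p = 0.0154), while none of the 10 changed sign.

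**Figure D1:**
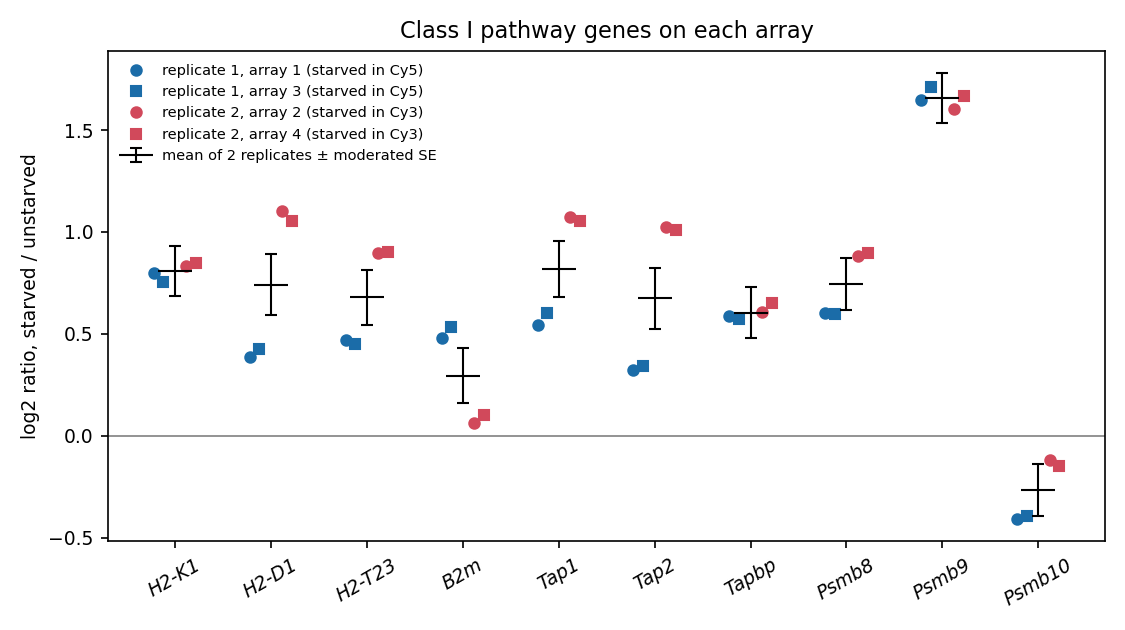
Log2 ratio of starved over unstarved for each of the 10 genes on each of the 4 arrays (blue, replicate 1; red, replicate 2), with the mean of the 2 replicates and its moderated standard error in black. Psmb9 lies near 1.66, 7 genes lie between 0.60 and 0.82, B2m lies above 0 on all 4 arrays without passing the test, and Psmb10 lies below 0.

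Among the class Ia heavy chains, H2-K1 rose by a like amount in both replicates on the probe that stands for it. Its normalised log2 intensity was 16.22 and 16.22 in the unstarved samples of replicate 1 and 16.36 and 16.34 in those of replicate 2, against 17.02 and 16.97, and 17.19 and 17.19, in the starved samples. The lowest starved sample thus lay above the highest unstarved one, as in 28.3% of all genes. That share stands beside each such separation described below. H2-K1 rose by 0.81 ± 0.12 on the log2 scale (SE, n = 2; 1.75-fold; limma adjusted p = 9.87e-05), with 0.78 in replicate 1 and 0.84 in replicate 2. Each SE given here and below is the moderated one, which borrows its spread largely from all genes. It is not the spread of the 2 replicates alone, whose ratios are given beside it. The probe behind the H2-K1 value is spotted 10 times on each array, and the SD of the 10 spot ratios was between 0.024 and 0.042, well below the change. It lies at chr17:33606564-33606623 in the mm8 design coordinates. The other 3 H2-K1 probes gave 0.73, 0.58 and 0.54, each past the test over all 24586 probes (highest adjusted p = 0.016), so all 4 probes had the gene higher. The last 2 of them differed between the replicates, at 0.30 and 0.86 and at 0.14 and 0.95.

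H2-D1, the other class Ia heavy chain in the set, rose by 0.74 ± 0.15 (SE, n = 2; 1.67-fold; limma adjusted p = 0.00113). Its log2 ratio was 0.39 and 0.43 on the arrays of replicate 1 and 1.10 and 1.05 on those of replicate 2. The rise was seen on all 4 arrays, and its size differed between the replicates by 0.67, more than in 97.6% of all genes. Its levels ran from 15.26 to 15.55 in unstarved and from 15.90 to 16.36 in starved samples, with no overlap. A second H2-D1 probe gave 0.70 (adjusted p = 0.00126). The nonclassical heavy chain H2-T23 (Qa-1), which presents leader peptides of other class I chains to natural killer cell receptors, rose by 0.68 ± 0.13 (SE, n = 2; 1.60-fold; limma adjusted p = 0.00102). Its ratio was 0.47 and 0.45 on the arrays of replicate 1 and 0.90 and 0.90 on those of replicate 2, again in the same direction throughout. Starved levels of H2-T23 ran from 15.05 to 15.34, above all unstarved levels, which ran from 14.42 to 14.63.

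Class I genes are close copies of one another, which limits how far these heavy-chain values are separate. The probe that stands for H2-D1 is assigned by the array design to transcripts of both H2-D1 and H2-Q2, and it shares a run of 24 bases with the H2-Q2 probe. The probe for H2-T23 shares 28 bases with the probe for H2-Q7. These 4 probes are shown because their signals may mix transcripts of more than 1 gene; each is 60 bases long and is printed 5′ to 3′, with the shared run in capitals.
H2-D1: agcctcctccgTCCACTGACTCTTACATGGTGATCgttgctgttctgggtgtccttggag
H2-Q2: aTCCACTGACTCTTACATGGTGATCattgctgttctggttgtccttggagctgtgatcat
H2-T23: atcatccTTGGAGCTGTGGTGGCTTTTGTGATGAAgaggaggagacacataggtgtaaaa
H2-Q7: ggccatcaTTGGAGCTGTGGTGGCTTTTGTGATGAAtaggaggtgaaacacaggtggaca
The H2-D1 probe lies at chr17:34874240-34874299 and the H2-T23 probe spans chr17:35638446-35638682 (mm8, from the array design; the second crosses an intron, since 60 bases cover 237). The second H2-D1 probe shares at most 7 bases with any other class I probe compared here and gave nearly the same ratio as the first. The first 2 H2-K1 probes share 25 bases with each other, and none of the H2-K1 probes shares more than 7 with an H2-D1 or H2-T23 probe. Probes were compared only with each other and not with the transcripts of other genes. A short shared run therefore does not show that 2 signals are separate.

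The light chain B2m, which every class I heavy chain needs to fold and reach the surface, did not pass the test. Its level was 14.66 and 14.67 in unstarved and 15.15 and 15.21 in starved samples of replicate 1, and 14.82 and 14.77 against 14.88 and 14.88 in replicate 2. The groups did not overlap, but in replicate 2 they almost touched. The log2 ratio was 0.51 in replicate 1 and 0.08 in replicate 2, a mean of 0.29 ± 0.13 (SE, n = 2; limma adjusted p = 0.108). A second B2m probe with 10 spots per array had the same split, with 0.46 and 0.45 on the arrays of replicate 1 and -0.036 and -0.016 on those of replicate 2. Spot to spot its SD was at most 0.021, so the split between the replicates was far larger than the spotting error. The third B2m probe gave 0.38 and passed the limma test over all probes (adjusted p = 0.0344). The array design lists no RefSeq transcript for it. It was much dimmer than the first, with a mean log2 intensity of 9.54 against 14.88. It starts at chr2:121840304 and the first at chr2:121844106 (mm8), so it may not measure the same transcript. The H2-K1 ratio exceeded that of B2m on every array, by 0.27 in replicate 1 and 0.76 in replicate 2, a difference with no test of its own. B2m leaned the other way from H2-D1 and H2-T23: its ratio was higher in replicate 1, while theirs were higher in replicate 2. H2-K1 was nearly equal in both, at 0.78 and 0.84.

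Both chains of the peptide transporter rose. Tap1 had log2 levels of 8.14, 8.05, 7.82 and 8.04 in unstarved samples on arrays 1, 3, 2 and 4 and of 8.68, 8.66, 8.89 and 9.10 in the starved samples of the same arrays. The groups were apart, with the smallest gap on arrays 1 and 3. Tap1 rose by 0.82 ± 0.14 (SE, n = 2; 1.76-fold; limma adjusted p = 2.42e-04), with 0.58 in replicate 1 and 1.06 in replicate 2. Tap2, the partner in the heterodimer, rose by 0.68 ± 0.15 (SE, n = 2; 1.60-fold; adjusted p = 0.00242), with 0.33 and 1.02. Its replicates differed by 0.68, more than in 97.8% of all genes, and its levels still did not overlap, at 10.17 to 10.51 unstarved and 10.71 to 11.21 starved. Within an array the log2 ratio of Tap1 exceeded that of Tap2 by 0.24 in replicate 1 and 0.05 in replicate 2, a gap with no test of its own. The size of the Tap1 ratio depended on the processing. It was 0.93 with a normexp offset of 10 and 1.11 with Agilent processed signals or the deposited value table. The Tap2 ratio was 0.69 with that offset and 0.68 with either of the others. Tapbp, which bridges the transporter and the empty heavy chain, rose by 0.60 ± 0.12 (SE, n = 2; 1.52-fold; adjusted p = 0.00128), with 0.58 and 0.63. Its levels were 14.28 and 14.38, and 14.36 and 14.58, in unstarved samples against 14.86 and 14.96, and 14.97 and 15.23, in starved ones, without overlap. The second Tapbp probe gave only 0.16 (adjusted p = 0.406), with 0.01 in replicate 1 and 0.30 in replicate 2, so the probes disagreed in size; with both averaged the ratio was 0.38 and still passed (adjusted p = 0.0271).

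The immunoproteasome subunits went separate ways. Psmb9 had log2 levels of 10.12 and 10.04 in unstarved samples of replicate 1 and 10.33 and 10.19 in those of replicate 2, against 11.77, 11.76, 11.93 and 11.86 in the starved samples. Both groups were tight and stood far apart. Psmb9 rose by 1.66 ± 0.12 (SE, n = 2; 3.15-fold; limma adjusted p = 3.72e-08), with 1.68 and 1.63 in the replicates, and ranked 95th from the top of the 16067 genes. Psmb8 rose by 0.74 ± 0.13 (SE, n = 2; 1.68-fold; adjusted p = 3.13e-04), with 0.60 and 0.89, and a second Psmb8 probe gave 0.73. Its levels of 13.09 to 13.39 unstarved and 13.85 to 14.03 starved did not overlap. Psmb10 did not pass the test, with -0.40 in replicate 1 and -0.13 in replicate 2, a mean of -0.27 ± 0.13 (SE, n = 2; adjusted p = 0.129). Its starved levels of 14.64, 14.72, 14.80 and 14.79 all lay below the unstarved ones of 15.04, 15.11, 14.92 and 14.93. That pattern, 4 starved samples all below the 4 unstarved, was seen in 23.5% of all genes, and the reverse, which held for the other 9 genes, in 28.3%. The ratio of Psmb9 was above that of Psmb10 by 2.08 and 1.77 in the replicates, the widest gap among the pairs compared.

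Psmb9 carries the largest change and Tap1 lies beside it head to head, so their probes are printed, 5′ to 3′, each of 60 bases from the array files.
Psmb9: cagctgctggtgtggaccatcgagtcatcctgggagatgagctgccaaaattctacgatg
Tap1: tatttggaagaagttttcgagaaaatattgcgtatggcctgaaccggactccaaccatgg
The Psmb9 probe lies at chr17:33792517-33792576 and the Tap1 probe at chr17:33804121-33804180 (mm8). On the same arrays the constitutive catalytic subunits that the immunoproteasome replaces did not pass the test. Psmb6, whose place Psmb9 takes, had a ratio of -0.16 in replicate 1 and -0.08 in replicate 2, a mean of -0.12. Psmb5, the counterpart of Psmb8, had -0.42 and 0.06, a mean of -0.18, and Psmb7, that of Psmb10, had -0.65 and 0.36, a mean of -0.14, so the sign of both turned between the replicates. Within an array the log2 ratio of Psmb9 exceeded that of Psmb6 by 1.84 in replicate 1 and 1.72 in replicate 2. That of Psmb8 exceeded that of Psmb5 by 1.02 and 0.83. The ratio of Psmb10 minus that of Psmb7 was 0.25 in replicate 1 and -0.49 in replicate 2, so no direction held for that pair. These differences have 2 replicates each and no test of their own.

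**Figure D2:**
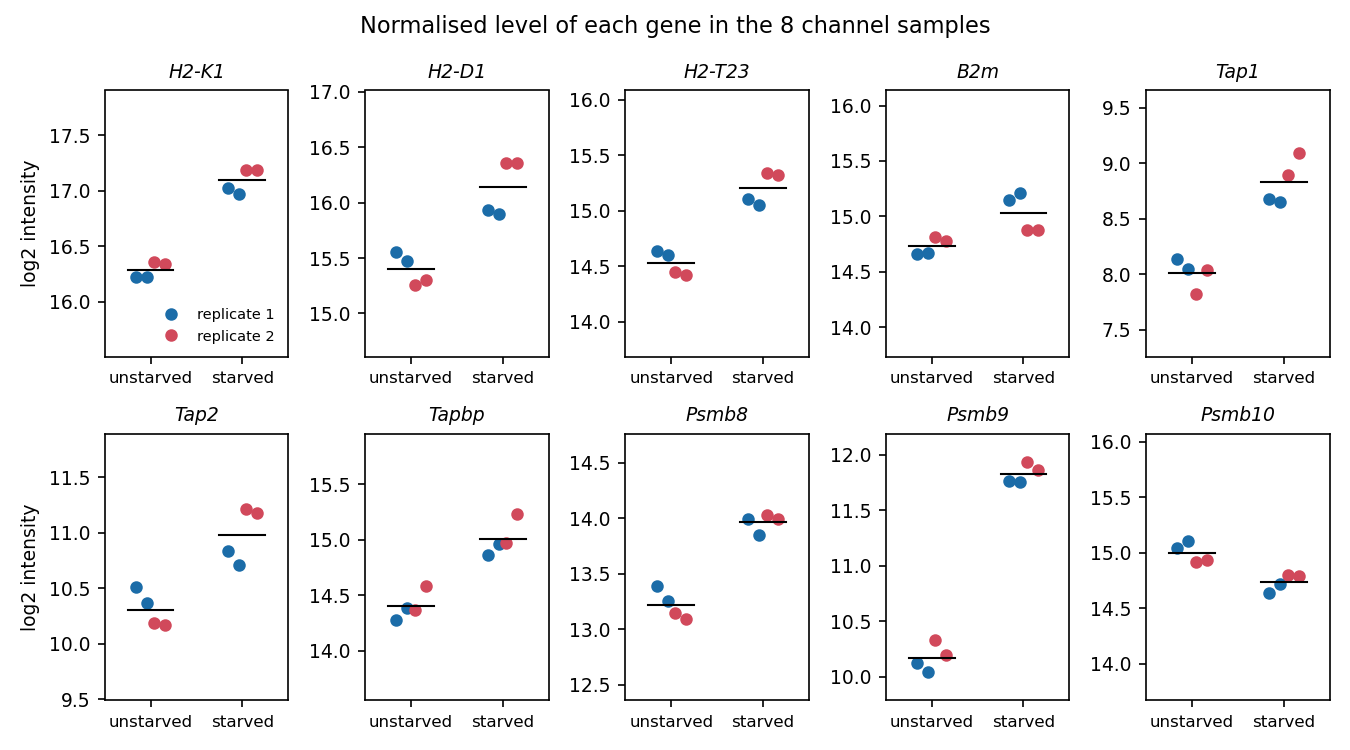
Normalised log2 intensity of each gene in the 4 unstarved and 4 starved channel samples (blue, replicate 1; red, replicate 2; line, group mean), each panel with an axis of the same length. The groups do not overlap in any panel: the starved samples are higher in 9 panels and lower for Psmb10, and the distance is widest for Psmb9 and narrowest in replicate 2 of B2m. Of all genes, 28.3% had the 4 starved samples all above the 4 unstarved and 23.5% had them all below.

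The replicates differed in the size of the change more than in its direction. Replicate 2 had the higher log2 ratio in 8 of the 10 genes, and the median over the genes was 0.51 and 0.55 on the arrays of replicate 1 and 0.89 and 0.90 on those of replicate 2. H2-D1, Tap2, Tap1 and H2-T23 were furthest above the line of equal replicates, at the 97.6, 97.8, 92.0 and 89.1 percentile of the absolute difference between replicates over all genes. Psmb9, Tapbp and H2-K1 were close to it, at the 13.6, 15.7 and 19.1 percentile, and B2m lay on its other side at the 88.1 percentile. Dye and replicate move together here, and their part in these gaps was not tested. When the arrays were paired across dyes instead, as 1 with 2 and 3 with 4, B2m and Psmb10 also passed the test (adjusted p = 3.95e-04 and 1.56e-04) with 14295 of all genes called. That pairing leaves the gap between replicates out of the spread, which then holds only differences between arrays of the same replicate.

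**Figure D3:**
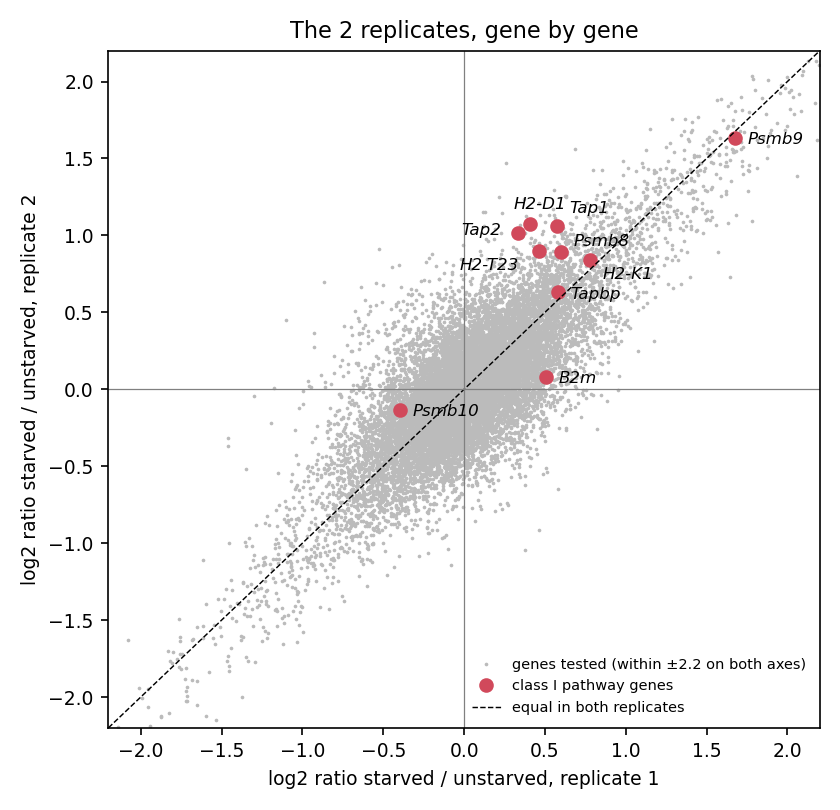
Log2 ratio of starved over unstarved in replicate 1 (x axis) against replicate 2 (y axis) for the genes tested, in grey, and the 10 class I pathway genes, in red; the dashed line marks equal replicates and genes beyond 2.2 on either axis are not drawn. Most of the red points lie above the line, with Psmb9 at 1.68 and 1.63 and B2m below it at 0.51 and 0.08.

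In the genome 8 of the 10 genes lie on chromosome 17, in the H2 complex, with B2m on chromosome 2 and Psmb10 on chromosome 8; the 8 on chromosome 17 are the 8 that rose. Of 42 protein-coding genes that stand within 3 places of a member on either side and are not members, 31 were tested. Among them 5 were higher and 2 lower, 22.6% in all against 31.4% of all genes, with a median log2 ratio of 0.07. The neighbours that rose were H2-Ke6 (0.75), near H2-K1, H2-Q2 (0.71) and H2-Q1 (0.69), near H2-D1, Sord (1.24), near B2m, and Pskh1 (0.36), near Psmb10. Those that fell were Eif3j1 (-0.53), near B2m, and Lcat (-0.44), near Psmb10. H2-Q2 and H2-Q1 are themselves class I genes.

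Since the heavy chains, the transporter and Psmb9 rose together, the 250 bases upstream of their starts were read from the RefSeq promoter table (GRCm38.p6), which matched 9 of the 10 genes; Tap2 did not match. The motifs were searched on both strands: the core of the interferon-stimulated response element (GAAA, any 2 bases, GAAA), the GAS element (TTCNNNGAA), the CCAAT box (CCAAT), a cyclic-AMP-response-like part of the SXY module of class I promoters (TGACGC) and the kappa-B element. They occurred in 2.98%, 7.02%, 33.8%, 6.12% and 3.9% of 32851 promoter windows of the same length. Among the 9 genes the interferon-stimulated core was in H2-T23 (-124 to -115 from the start) and B2m (-139 to -130), GAS in Psmb8 (-97 to -89), TGACGC in H2-K1 and H2-D1, and kappa-B in H2-K1, H2-D1 and B2m. The CCAAT box was in 7 of them, all but Psmb8 and Psmb10. Motif matches are a description of the letters and not of factor binding. Only exact matches to these letters were counted. A window without a match may thus still hold a variant form of an element, in H2-K1 and H2-D1 as in the others. The windows below are given because they show how the heavy chains, the light chain and the proteasome subunits differ; all are 5′ to 3′ on the strand of the gene, with every match in capitals. They cover chr17:34000348-34000597 (minus strand), chr17:35262844-35263093 (plus strand), chr17:36032702-36032951 (minus strand), chr2:122147437-122147686 (plus strand), chr17:34197945-34198194 (plus strand) and chr17:34187331-34187580 (minus strand), in the order printed.
H2-K1: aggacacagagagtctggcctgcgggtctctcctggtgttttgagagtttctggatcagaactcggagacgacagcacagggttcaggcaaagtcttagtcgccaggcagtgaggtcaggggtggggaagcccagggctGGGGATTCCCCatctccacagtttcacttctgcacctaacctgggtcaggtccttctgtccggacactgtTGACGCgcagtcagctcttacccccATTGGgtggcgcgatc
H2-D1: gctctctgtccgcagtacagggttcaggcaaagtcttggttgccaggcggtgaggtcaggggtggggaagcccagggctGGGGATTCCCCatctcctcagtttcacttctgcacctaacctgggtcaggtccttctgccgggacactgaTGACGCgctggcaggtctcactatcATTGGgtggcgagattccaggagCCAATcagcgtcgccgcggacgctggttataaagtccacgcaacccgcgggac
H2-T23: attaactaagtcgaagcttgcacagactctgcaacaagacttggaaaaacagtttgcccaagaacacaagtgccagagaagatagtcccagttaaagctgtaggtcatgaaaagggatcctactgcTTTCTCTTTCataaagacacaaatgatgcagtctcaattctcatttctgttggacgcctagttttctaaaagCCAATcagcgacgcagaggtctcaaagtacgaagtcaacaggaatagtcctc
B2m: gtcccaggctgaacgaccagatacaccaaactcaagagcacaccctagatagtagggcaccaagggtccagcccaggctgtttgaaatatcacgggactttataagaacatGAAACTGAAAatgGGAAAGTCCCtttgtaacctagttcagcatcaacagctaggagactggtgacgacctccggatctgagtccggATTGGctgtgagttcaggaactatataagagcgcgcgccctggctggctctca
Psmb8: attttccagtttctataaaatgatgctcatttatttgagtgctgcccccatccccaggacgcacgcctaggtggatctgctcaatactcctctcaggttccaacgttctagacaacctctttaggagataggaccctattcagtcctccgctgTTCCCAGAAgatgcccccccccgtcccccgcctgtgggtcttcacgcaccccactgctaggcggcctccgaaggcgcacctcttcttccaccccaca
Psmb9: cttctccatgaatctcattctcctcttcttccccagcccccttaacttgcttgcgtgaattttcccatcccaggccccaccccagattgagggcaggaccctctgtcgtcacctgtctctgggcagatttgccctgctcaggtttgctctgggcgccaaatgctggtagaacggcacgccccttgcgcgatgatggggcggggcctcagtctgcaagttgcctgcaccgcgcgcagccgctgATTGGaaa
H2-K1 and H2-D1 share an unbroken run of 47 bases, which holds 2 kappa-B matches that overlap each other; no other motif matches overlap. B2m, with an interferon-stimulated core, a kappa-B match and a CCAAT box, has 3 of the 5 motifs, and Psmb9 has a CCAAT box and none of the other 4 in this window. The starts of Psmb9 and Tap1 lie 226 bases apart and point away from each other, so that most of the Psmb9 window is also the Tap1 window on the opposite strand. The log2 ratio of Psmb9 exceeded that of Tap1 by 1.10 in replicate 1 and 0.57 in replicate 2.

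Probes of other class I genes rose too. Of 21 further class I and class I-like heavy chains, 17 were on the array and 13 were tested. Beside 18.1% of all genes higher and 13.4% lower, 8 of the 13 were higher, none lower and 5 not called, with a median of 0.47. All but Fcgrt were well above background in both groups, which leaves 7 higher of 12 and a median of 0.45. H2-Q2 rose by 0.71 (0.44 in replicate 1 and 0.97 in replicate 2; adjusted p = 0.00101), H2-Q10 by 0.70 (0.38 and 1.02; adjusted p = 0.00161), H2-Q1 by 0.69 and H2-Q7 by 0.65. H2-Bl (0.50), H2-Q8 (0.47) and the iron regulator Hfe (0.44) were higher as well. The H2-Q2 probe shares 24 bases with that of H2-D1, and the H2-Q7 probe shares 28 with that of H2-T23. The 8 called higher may therefore not all be separate from the members. The neonatal Fc receptor Fcgrt was well above background on the 4 starved and on 0 of the 4 unstarved arrays, so it entered through the group where it was high and has only a bound, at least 1.41-fold higher in starved cells. The bound sets the starved mean against the higher of the probe's own signal and the lowest signal well above background on each unstarved array. Its fitted ratio was 0.72 (adjusted p = 4.31e-04), 2.09 with Agilent processed signals and 1.43 with the deposited value table. H2-T22 (0.01), H2-M3 (-0.02), H2-T10 (-0.03), the lipid-presenting Cd1d1 (-0.19) and Azgp1 (0.12) did not pass. H2-Bl, at 0.10 in replicate 1 and 0.90 in replicate 2, had nearly the values of the H2-K1 probe with which its own probe shares 16 bases (0.14 and 0.95), so the 2 may not be separate measurements.

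The general chaperones of peptide loading did not rise with the members. Over all genes tested, 18.1% were higher and 13.4% lower. Of 12 genes for loading and trimming in the endoplasmic reticulum, 2 were higher, 3 lower and 7 not called, with a median of 0.03. Those lower were Pdia3 (-0.47), the disulfide isomerase held in the loading complex, the lectin chaperone Calr (-0.40) and Sec61b (-0.36), a part of the protein channel. Those higher were the protease Sppl3 (0.43) and the peptide-trimming Erap1 (0.34; adjusted p = 0.0473). Tapbpl, the tapasin relative that edits peptides, had 0.33 and missed the threshold narrowly (adjusted p = 0.0501). Pdia3 and Calr were uneven between replicates, at -0.83 and -0.12 and at -0.62 and -0.19. Of 8 proteasome activator and assembly genes, 1 was higher and 2 lower, with a median of 0.04. The activator subunit Psme1 rose by 0.38, its partner Psme2 had 0.19 and was not called, and the nuclear activator Psme3 (-0.34) and the assembly chaperone Psmg1 (-0.37) were lower. With Agilent processed signals, Erap1, Pdia3, Sec61b, Psme1, Psme3 and Psmg1 each missed the threshold (adjusted p between 0.0539 and 0.0939), as did Sppl3 with its probes averaged (adjusted p = 0.101), Pdia3 with replicate as a random block, a fit with an estimated correlation (adjusted p = 0.0601), Erap1 without array 2 (adjusted p = 0.053) and Psme3 without array 4 (adjusted p = 0.0508).

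Among 17 factors known to act on class I promoters, 6 were higher and none lower, with a median of 0.26. For all genes the shares were 18.1% and 13.4%. Irf1, a main activator of class I and immunoproteasome genes, rose by 1.08 (adjusted p = 5.18e-06), with 1.00 in replicate 1 and 1.17 in replicate 2. Stat2 rose by 0.77 (adjusted p = 2.84e-04) and its partner Irf9, with which it acts in type I interferon signalling, by 0.47. Irf9 missed the threshold with its probes averaged (adjusted p = 0.061). The NF-kappa-B subunit Relb rose by 0.59, while Rela (0.32), Nfkb1 (-0.10) and Nfkb2 (-0.16) did not pass. Rfxank, of the RFX complex, rose by 0.45 and Irf2 by 0.41, while Rfx5 (0.23) and Rfxap (-0.12) were not called. Nlrc5, the class I transactivator, was not matched to a probe and is not analysed here. Of 9 interferon receptor and signalling genes tested, all 9 lay above 0, as did 50.75% of all genes tested. Ifngr1, Ifngr2 and Jak1 lay below 0 under median centring. The median of the 9 was 0.32, and 2 were higher and none lower. These 2 were the receptor chains for interferon lambda, Ifnlr1 (0.60) and Il10rb (0.55); Ifnar1 had 0.32 and Ifngr1 0.09, neither called; without array 1 Ifnar1, Ifnar2, Tyk2 and Rela passed the test (adjusted p between 0.0251 and 0.0479). The ligands Ifnb1, Ifng, Ifne, Ifnk and Ifnl3 did not stand well above background in starved or unstarved samples, and so were not tested. Over the 8 related lists of this pathway, 24 of 78 genes tested were higher and 7 lower, with a median of 0.15. Of the 76 well above background in both groups, 23 were higher and 6 lower. The shares over all genes tested were 18.1% higher and 13.4% lower.

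**Figure D4:**
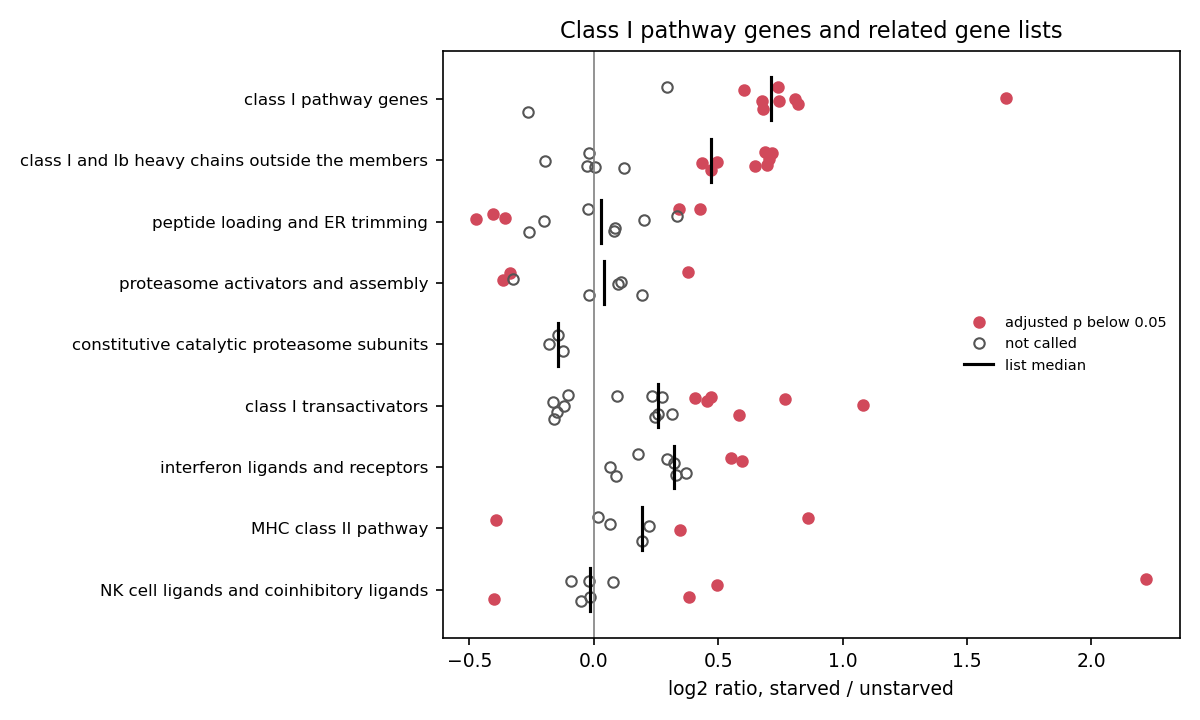
Log2 ratio of starved over unstarved for the genes of each list (filled, adjusted p below 0.05; open, not called; bar, median of the list), with a small random vertical offset. The class I pathway genes have a median of 0.71 and the further heavy chains 0.47, while peptide loading (0.03), proteasome activators (0.04) and constitutive catalytic subunits (-0.14) stay near 0.

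Antigen-presenting cells carry much class I mRNA, so their markers were read beside these results. Of 20 leukocyte and antigen-presenting cell markers, all on the array, 10 were well above background in unstarved and 8 in starved samples. Their summed normalised intensity was 10340 to 10690 in unstarved and 18460 to 20880 in starved samples, so it was higher where the members were higher, and its part in their change was not tested. The sum rests mainly on Csf1r and Cd14. Their mean log2 levels were 11.53 and 12.14 in unstarved and 12.97 and 13.02 in starved samples. The next brightest marker in starved samples was Aif1, at 9.08. Of the 10 tested, 3 were higher, namely Aif1 (1.49), Csf1r (1.44) and Cd14 (0.88), and 1 was lower, the pan-leukocyte Ptprc (-0.50), which was above background on 2 of the 4 starved arrays. For all genes tested, the shares were 18.1% higher and 13.4% lower. Defining macrophage, dendritic and B cell genes, among them Adgre1, Itgam, Lyz2, Itgax and Ms4a1, did not stand well above background in starved or unstarved samples. The summed epithelial markers, at 845300 to 888600 in unstarved and 655100 to 732000 in starved samples, were lower after starvation, with Krt7 (-1.07), Krt19 (-0.90) and Krt8 (-0.64) lower while Cldn4 (0.86), Cdh1 (0.67), Epcam (0.61), Cldn7 (0.60) and Hsd11b2 (0.35; above background on 1 of the 4 unstarved arrays) were higher. Of 9 fibroblast and 10 endothelial markers, 3 in each list were above background in unstarved samples and 2 in each in starved ones. Among these, 5 were lower in starved cells and none higher: Col1a1 (-1.01), Postn (-1.03; above background on 0 of the 4 starved arrays, so at least 1.91-fold lower), Flt1 (-1.02), Eng (-0.53) and Ptprb (-0.34; above background on 1 of the 4 starved arrays); Col1a2 (-0.11) was not called. The summed level was 1559 to 1690 for fibroblast and 3240 to 3437 for endothelial markers in unstarved samples, against 1191 to 1260 and 2039 to 2277 in starved ones, and the part of any of these marker lists in the members' change was not tested.

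By distance over the 4 arrays from the median profile of the 10 genes, Psmb8 (0.10) and H2-T23 (0.11) were the most typical members and B2m (1.15), Psmb9 (1.93) and Psmb10 (1.96) the least. The 5 genes outside the group nearest to that profile were Itgb8 (distance 0.039), an integrin chain; Aldh3b1 (0.039), an aldehyde dehydrogenase; Ap5z1 (0.048), an adaptor subunit; Cnp (0.055), a nucleotide phosphodiesterase; and Ripor1 (0.061). Their log2 ratios lay between 0.70 and 0.72. These are likenesses over 4 arrays of 16067 genes and describe these arrays only.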

How the data were processed

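Expression was measured in 8 channel samples (4 arrays) of IMCD3 cells. The authors read spot intensity with Agilent Feature Extraction (9.5.3.1 in the submitters' processing notes); the mean signal and local background were deposited uncorrected. Both files of a hybridisation were identical for all 4, and each sample's own dye channel was used. In limma 3.58.1 (R 4.3.3) the intensity was background-corrected (normexp, offset 50) and loess-normalised within each array, with control and outlier spots at weight 0. Log2 ratios were turned to starved over unstarved, spots of a probe averaged, and probes kept where well above background on 4 arrays of a group (24586 of 41174). The brightest probe stood for a gene. Arrays of a replicate were averaged, and lmFit and eBayes were run on 2 replicate ratios, with Benjamini-Hochberg adjustment over 16067 genes and a threshold of 0.05. Levels are log2 single-channel values after the same steps. The file headers give 1 slide and 1 scan for all arrays. RefSeq (GRCm38.p6) gave current names, neighbours and promoters; coordinates of probes are those of the array design (mm8). The deposited value table (linear intensity, scaling not given in the sources used here) and the processed intensity of the scanner files served as alternatives. Scripts were tested on simulated data. Genes named by rule are the members, the 5 nearest profiles and, in each list, up to 3 called genes a direction plus key partners; other genes of the lists, markers and neighbours were named after their values were seen. The members and lists were chosen with earlier results of these data known. Pairing follows from shared hybridisation; same-numbered samples' deviations correlated at -0.297, and as they carry opposite dyes this does not test the pairing. A gene of the transactivator list is counted with its list and is not reported here by name.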

Additional observations from a re-analysis of the deposited data

How the results depend on the processing

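The members' calls (8 higher, 0 lower) were the same under a normexp offset of 10, Agilent processed signals, the deposited value table, either filter on dim probes, averaging a gene's probes, replicate as a random block and each array left out. Median centring called 249 genes (133 higher, 116 lower), 1 member and 1 gene of the pathway lists, against 31. There the ratios were 0.41 for H2-K1, 0.42 for H2-D1, 0.43 for H2-T23, 0.80 for Tap1, 0.64 for Tap2, 0.36 for Tapbp and 0.59 for Psmb8, and Ctsl (-0.067), Ifngr1 (-0.19), Ifngr2 (-0.030), Jak1 (-0.14), Canx (-0.31) and Psme2 (-0.15) turned negative; the cause was not tested. Pairing arrays 1 with 2 and 3 with 4 called 14295 genes (7338 higher, 6957 lower), 1 with 4 and 2 with 3 called 14101 (7249 and 6852), and a dye term 14199 (7325 and 6874); each called 9 members higher, 1 lower (Psmb10) and 70 genes of the lists. By construction these take the gap between dyes, and with it the gap between replicates, out of the spread. What is left is only the difference between arrays of the same replicate. Nfkb1 turned to 0.039 with averaged probes, and Pomp to 0.032 with Agilent processed signals or the value table and 0.0053 without array 1, and ranged from -0.17 to 0.13 with 1 replicate left out. Without the replicate block (levels, not paired within arrays) 5858 genes, 8 members and 34 of the lists were called, and no member's call changed, though Pvr lost its call. Leaving out 1 array gave 4960 to 5518 genes called. The members' median was 0.89 without replicate 1 and 0.54 without replicate 2, where no test is possible. With 2 replicates confounded with dye, small changes such as those of B2m and Psmb10 are beyond the precision of these arrays.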

Other observations

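Of 15 genes of the class II pathway, all on the array, 7 were tested, and 2 were higher, 1 lower and 4 not called, with a median of 0.19. The shares over all genes were 18.1% higher and 13.4% lower. The thiol reductase Ifi30 rose by 0.86 (adjusted p = 5.53e-05) and the cathepsin Ctsl by 0.35 (adjusted p = 0.0404; 0.0526 with normexp offset 10, and below 0 under median centring), while the invariant chain Cd74 fell, at -0.39 (adjusted p = 0.0226). The class II chains H2-Aa, H2-Ab1 and H2-Eb1 and their transactivator Ciita did not stand well above background in starved or unstarved samples.

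Among ligands of natural killer and T cell receptors, 12 of 18 listed genes were on the array and 9 were tested, with 3 higher, 1 lower and a median of -0.01. Of all genes tested, 18.1% were higher and 13.4% lower. Clec2d, the ligand of an inhibitory natural killer cell receptor, rose by 2.22 (adjusted p = 2.54e-09), with 2.05 in replicate 1 and 2.39 in replicate 2. The checkpoint ligand Cd274 rose by 0.49 (0.68 in replicate 1 and 0.31 in replicate 2) and Pvr by 0.38 (adjusted p = 0.0454; 0.0551 without array 4, 0.0626 with replicate as a random block, 0.101 with no replicate block, 0.0893 with Agilent processed signals and 0.487 with its probes averaged), whereas the activating ligand Ulbp1 was lower, at -0.40 (adjusted p = 0.0234), or -0.94 with Agilent processed signals. Ulbp1 was above background on 2 of the 4 starved arrays and was not called when the replicate was a random block (adjusted p = 0.193 with an estimated correlation). Cd47, Raet1a, Raet1e, Nectin2 and Cd40 were not called.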
